A study of Mus musculus with 36 samples.

Results

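The mRNAs of the Rab GTPases were followed through ribosome-protected fragments (RPFs) of mouse brain. Members were all genes of the count table whose symbol is Rab, a number and at most 1 letter from a to e. This gave 56 genes of 16614 in the table, and all 56 are protein-coding. RPFs were sequenced from 2 sites of a sucrose gradient, the pellet, which holds compacted clusters of ribosomes, and fraction 5/6, which holds polysomes. RNA-seq of the whole brain homogenate gave the mRNA level. The mice were C57Bl/6, either WT or FMR1 KO, which lack FMRP, the RNA-binding protein lost in fragile X syndrome. They were 5 days old and of both sexes, and each preparation pooled 10 brains, so no value belongs to a single animal or to a single cell type. In the standard nuclease preparation ribosomes were digested in 10 mM MgCl2, and in the low nuclease preparation in 2.5 mM. With 3 libraries for each of 12 groups, there were 36 libraries in all, 24 of RPFs and 12 of RNA.

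Rab proteins are small GTPases that give each membrane of the secretory and endocytic routes its identity. A Rab bound to GTP sits on its membrane and recruits effectors, such as tethers and motors. Guanine nucleotide exchange factors (GEFs) load it with GTP and GTPase-activating proteins (GAPs) switch it off. GDP dissociation inhibitors then carry the inactive protein through the cytosol. In neurons Rab3 proteins act on synaptic vesicles, Rab5 proteins on early endosomes, Rab11 proteins on recycling endosomes, Rab7 on late endosomes and Rab1 and Rab6 proteins around the Golgi. The switch II region, which opens with the residues that sense the bound nucleotide, is among the stretches most alike between members.

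In the standard preparation the RNA libraries held 112249206 to 147216378 counts and the RPF libraries 6765065 to 40174168 counts. With low nuclease the ranges were 41586791 to 141505786 counts for RNA and 23634940 to 62310787 counts for RPFs. Between 36.7% and 63.4% of the counts of each standard RPF library fell on Cdk8, so levels are given as CPM, the counts per 1000000 counts that are left without Cdk8. The standard RPF libraries held 21421 to 68574 Rab counts each. The low nuclease RNA included 3 libraries, replicate 2 of WT with replicates 2 and 3 of FMR1 KO, in which the 10 highest genes held 81.5% to 85.0% of the counts left without Cdk8. Comparisons with that RNA carry a wider error. Fmr1, the targeted gene, had 4.79 to 10.7 CPM in FMR1 KO RPFs and 3.17 to 116 CPM in WT RPFs. The lowest WT value came from the library labelled WT fraction 5/6 replicate 3 of the standard preparation, which goes against its label. The neuronal marker Tubb3 had 1533 to 4135 CPM in every library outside the low nuclease RNA, and of the liver markers Apoa1 had at most 0.891 CPM and Ttr, which the choroid plexus of the brain also makes, 9.13 to 301.8 CPM. The muscle marker Acta1 reached 314.4 CPM in 1 WT and 124.1 CPM in 1 FMR1 KO pellet library of the standard preparation. Its group medians were 12.9 and 11.5 CPM. In the same WT and FMR1 KO groups the muscle marker Myh3 reached at most 6.71 and 3.52 CPM, and Ckm at most 0.57 and 1.23 CPM. The part of Acta1 in the results was not tested. Fewer cells of a type and less RNA per cell cannot be told apart in such bulk samples.

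In the standard preparation the Rab family as a whole made up a smaller share of RPFs than of mRNA. Summed over the 56 members, RNA-seq of the standard preparation gave 6540, 6846 and 6851 CPM in WT and 6940, 7283 and 6786 CPM in FMR1 KO. The pellet gave 3223, 3650 and 2746 CPM in WT and 2931, 3031 and 3295 CPM in FMR1 KO. Fraction 5/6 gave 3968, 2746 and 3473 CPM in WT and 3977, 4043 and 5000 CPM in FMR1 KO. Every RPF library lay below every RNA library of this preparation, while the genotypes overlapped in the pellet. In fraction 5/6 every FMR1 KO sum lay above every WT sum, though 3977 CPM in FMR1 KO was close to 3968 CPM in WT. The WT sum of 3473 CPM came from the library whose Fmr1 goes against its label, and the difference was not tested. The gap depends on scaling. After TMM scaling, which sets the median gene near no change, the WT sums were 3989 CPM in RNA and 3928 CPM in the pellet. With low nuclease and no TMM, WT RNA gave 4426, 521 and 3807 CPM. The WT pellet gave 4100, 3466 and 3660 CPM and WT fraction 5/6 gave 4941, 4902 and 5835 CPM. In the same order FMR1 KO gave 4265, 428 and 471 CPM, 3777, 3778 and 3909 CPM, and 5373, 5505 and 5119 CPM. There fraction 5/6 lay above RNA, which includes the 3 libraries with concentrated counts.

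Rab3a, the main Rab of synaptic vesicles, had the most pellet RPFs (ENSMUSG00000031840, GRCm38 chromosome 8). Its pellet level was 470, 551 and 393 CPM in WT and 363, 278 and 478 CPM in FMR1 KO. Per coding length it was also the highest member of the WT pellet, at 714 ± 120 CPM per kb (SD, n = 3), followed by Rab6b of the Golgi at 448 ± 52.7 and Rab11a of recycling endosomes at 398 ± 55.5. These errors leave the order of Rab6b and Rab11a open. The 10 highest members by mean pellet CPM over both genotypes were Rab3a, Rab6b, Rab11a, Rab6a, Rab1a, Rab27a, Rab14, Rab10, Rab3b and Rab3c. At the other end, Rab20, Rab25, Rab29, Rab32, Rab37, Rab38, Rab39, Rab42 and Rab7b had means under 1 CPM in the WT pellet.

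**Figure D1:**
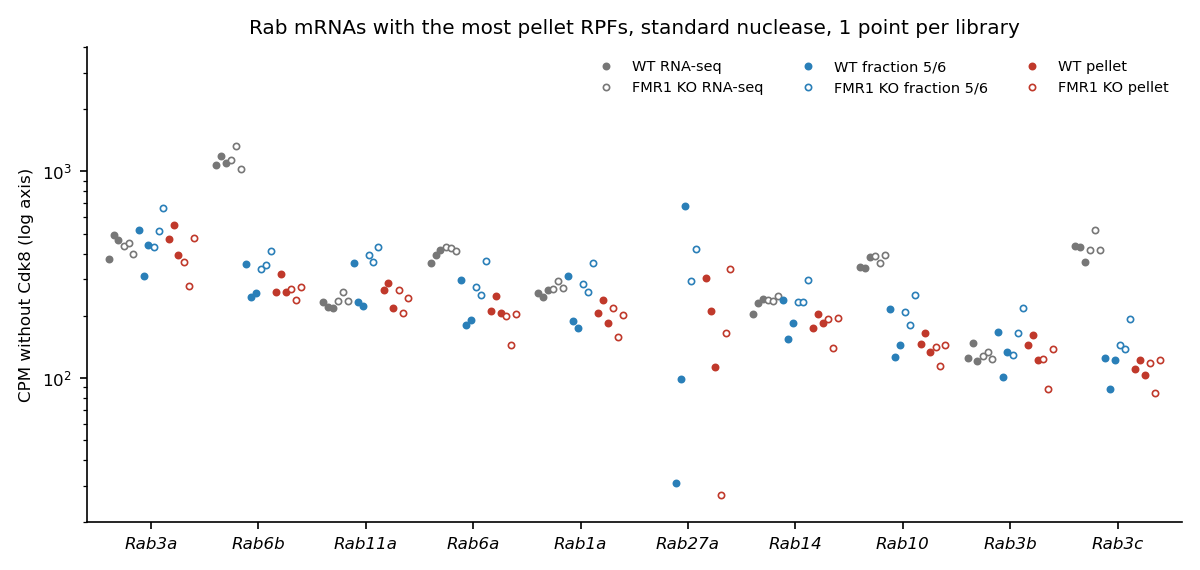
CPM without Cdk8 on a log axis for the 10 Rab mRNAs with the highest mean pellet level, with 1 point per library of the standard nuclease preparation (grey RNA-seq, blue fraction 5/6, red pellet, filled WT, open FMR1 KO). The mRNA of Rab6b stands well above its RPFs, Rab3a and Rab11a have like levels in all 3 kinds of library, and Rab27a has RPFs from 27.0 to 684 CPM with RNA near 7 CPM, below the axis; its FMR1 KO fraction 5/6 replicate 3, at 5.14 CPM, is also below it.

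Occupancy, the pellet RPFs against the RNA-seq of the same genotype, asks how far an mRNA is loaded with pelleted ribosomes for its abundance. In WT 13 of the 55 members tested were higher and 26 lower than the median gene (edgeR quasi-likelihood test, Benjamini-Hochberg adjusted p under 0.05). Among all 16180 genes tested 31.1% were higher and 34.2% lower. The median log2 occupancy was -0.25 for the members and -0.10 for all genes. In FMR1 KO 10 of 56 members were higher and 27 lower, against 31.8% and 35.2% of all genes. Of these calls, 9 rises and 22 falls were shared by the genotypes and none was opposite, though each genotype has its own libraries for both arms. With library size alone in place of TMM, the median of all genes moved to -1.26 in WT and -1.17 in FMR1 KO. The calls then became 1 higher and 44 lower in WT and 2 higher and 38 lower in FMR1 KO. Among the named members, the WT rises of Rab14, Rab1a, Rab5a and Rab6a, and the FMR1 KO rises of Rab11a, Rab14, Rab1a, Rab3a and Rab3b, changed sign on that scale, so all directions here are relative to the median gene.

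**Figure D2:**
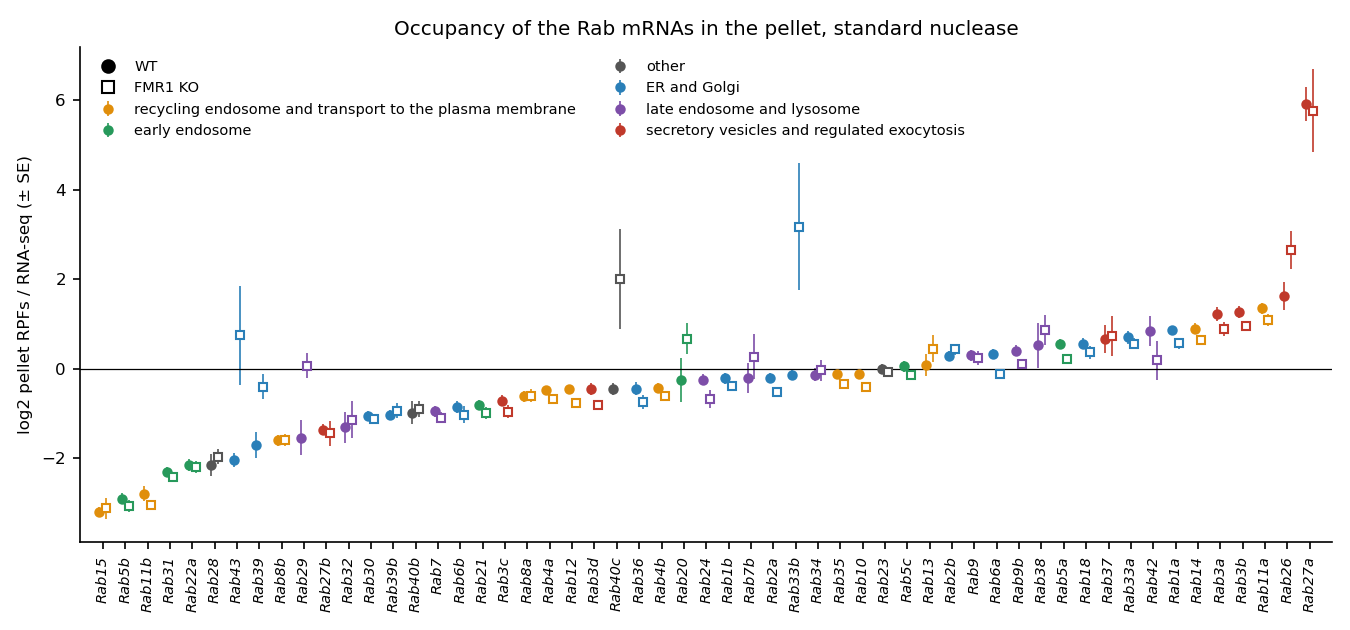
Log2 ratio of pellet RPFs to RNA-seq, with its standard error, for the 55 Rab mRNAs tested in both genotypes, in order of the WT value (circles WT, squares FMR1 KO, coloured by the compartment of the protein). The values run from -3.20 for Rab15 to 5.91 for Rab27a in WT, and the FMR1 KO values of Rab43, Rab40c and Rab33b lie above the WT values with wide errors that come from 1 library.

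Of the 13 WT rises, 4 were in Rabs of secretory vesicles and regulated exocytosis, namely Rab3a, Rab3b, Rab26 and Rab27a, whose RPF counts vary widely between libraries. Rab3a rose by 1.22 in WT (log2, SE 0.15, adjusted p = 0.00028 by edgeR's quasi-likelihood test) with 0.88 in FMR1 KO. Rab3b, which also acts in regulated exocytosis, had 125, 148 and 121 CPM in WT RNA and 144, 161 and 122 CPM in the WT pellet. Its CPM overlapped between RNA and pellet, while its occupancy against the median gene was 1.26 in WT (SE 0.13) and 0.96 in FMR1 KO. Rab26, linked to secretory granules and to synaptic vesicle autophagy, had 10.2, 11.1 and 9.45 CPM in WT RNA against 9.45, 12.2 and 20.8 CPM in the WT pellet, and rose by 1.63 in WT and 2.66 in FMR1 KO.

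Other secretory Rabs went the opposite way. Rab3c, another Rab3 of brain vesicles, had 436, 429 and 363 CPM in WT RNA, close to Rab3a, but 111, 123 and 104 CPM in the WT pellet. Its occupancy was -0.72 in WT and -0.96 in FMR1 KO. In the same order Rab3d was at -0.45 and -0.81 and Rab27b at -1.37 and -1.45, and each of these 6 values passed the test. Of the 8 secretory members, 4 were higher and 3 lower in each genotype, with a median of 0.95 in WT, Rab27a included. Of the early endosome Rabs 1 of 7 was higher and 4 lower, with a median of -0.82 in WT. The all-gene shares were 31.1% higher and 34.2% lower, and no compartment was tested against them. Of the 14 Rabs of the ER and Golgi 5 were higher and 6 lower, and of the 12 recycling Rabs 2 were higher and 7 lower. The late endosome group had 1 of 10 higher and 3 lower.

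Close relatives with like mRNA levels had far apart RPF levels. Rab11a and Rab11b both serve recycling endosomes. Rab11a had 233, 220 and 219 CPM in WT RNA and 266, 290 and 219 CPM in the WT pellet. Rab11b had 236, 244 and 243 CPM in WT RNA but only 14.9, 20.6 and 11.6 CPM in the WT pellet. The occupancy of Rab11a was 1.35 in WT (SE 0.12) and 1.09 in FMR1 KO, while that of Rab11b was -2.80 (SE 0.17) and -3.05.

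The Rab5 proteins, which direct fusion of early endosomes, differed among themselves as well. Rab5a rose by 0.55 in WT (SE 0.12), and its FMR1 KO value of 0.21 did not pass the test (adjusted p = 0.099). Rab5b had 175, 181 and 176 CPM in WT RNA and 10.9, 12.7 and 8.47 CPM in the WT pellet, the second lowest occupancy of the family at -2.91 (SE 0.13). Rab5c was at 0.05 in WT and did not pass the test, with 214 ± 10.4 CPM in WT RNA and 101 ± 19.6 CPM in the WT pellet (SD, n = 3). The difference between relatives was not itself tested.

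Rab15, Rab31 and Rab22a were low as well, as were Rab28 and Rab43 in WT at -2.15 and -2.04. Rab15, a neuronal Rab of recycling endosomes on chromosome 12, had the lowest occupancy of all. It had 144, 151 and 148 CPM in WT RNA and 6.58, 8.18 and 6.96 CPM in the WT pellet, with a log2 occupancy of -3.20 (SE 0.11, adjusted p = 3.9e-06 by edgeR's quasi-likelihood test). Rab31, which acts between the Golgi and endosomes, was at -2.31 in WT and -2.43 in FMR1 KO. Rab22a, a relative of it on early endosomes, was at -2.15 and -2.20.

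The sequences of the low members differ in how far they can be told from other loci. Of the 28-nt words in the coding sequence of Rab11b 95.56% also occur elsewhere in GRCm38, and of Rab5b 81.96%. Transcripts that share such words are Rab11b-ps2 and Gm17251 for Rab11b, and Gm13991 and Rab5a for Rab5b. For Rab7 the share was 66.83%, for Rab8b 42.21%, for Rab2a 41.34%, for Rab9 40.76%, for Rab5a 26.89% and for Rab6a 19.33%. In Rab15, Rab31, Rab22a and Rab28, which were also low, no such word occurs at another place in the genome. Among annotated transcripts, however, Rab43 shares 67.7% of its coding words with Gm45140, and Rab22a 11.3% with Mir6340. How reads with several matches were counted is not given in the sources used here, and the part of the copies in the low RPF values was not tested. Over the 55 members, Spearman's rho between the share of words elsewhere and WT occupancy was 0.00045, and over 56 members in FMR1 KO it was -0.15, both as descriptions. Most members have few such words or none, so these ranks cannot speak for the few members with large shares.

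Coding sequences of the members are short, 582 to 885 nt, and make up from 8.06% to 91.7% of the transcript. RPFs come from the coding sequence, while RNA-seq reads come from the whole mRNA. The coding share of the transcript was 8.13% for Rab22a, 10.7% for Rab11b, 16.8% for Rab31, 20.1% for Rab15 and 20.3% for Rab5b. It was 91.7% for Rab26, 62.4% for Rab3b, 42.4% for Rab3a and 27.7% for Rab11a. Over members, Spearman's rho between coding share and occupancy was 0.33 in WT (55 members) and 0.34 in FMR1 KO (56 members). These members share libraries and are not replicates, so the value is a description. Rab3c is the member with the smallest coding share, 8.06%, while its WT occupancy was -0.72, against -2.15 for Rab22a with a like coding share.

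Fraction 5/6 was compared with RNA in the same way. Against RNA, 14 members were higher and 14 lower of 56 in WT, where 28.3% of all genes were higher and 27.6% lower. The members' median was -0.01 where the pellet gave -0.25, and the medians of all genes were 0.01 and -0.10. The WT count fell to 5 higher and 12 lower without replicate 1 and to 6 higher and 10 lower without replicate 2. It was 16 higher and 12 lower without replicate 3, and 16 and 16 without the library labelled WT fraction 5/6 replicate 3 alone. In FMR1 KO 17 were higher and 19 lower, against 29.7% and 33.1% of all genes. Rab15, Rab5b and Rab11b were again the lowest, at -2.90, -2.85 and -2.69 in WT and -2.99, -2.63 and -2.51 in FMR1 KO. Rab3a was at 1.17 and 1.22 and Rab11a at 1.54 and 1.64. Rab28, a Rab of cilia and photoreceptors, was at -1.95 and -1.99, and Rab43 of the Golgi at -1.92 and -1.84. With library size alone the median of all genes moved to -1.22 in WT and -1.02 in FMR1 KO, and the WT rises of Rab14, Rab1a, Rab3a and Rab5a and the FMR1 KO rises of Rab5a and Rab6a then changed sign. The 2 occupancy measures use the same RNA libraries, so they are not independent of each other.

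A few calls concern mRNAs near the limit of detection. Rab25, an epithelial Rab, had 0.00 to 3.86 CPM in the standard RPF libraries. Its rise of 3.81 in the FMR1 KO pellet (SE 1.39) rested on replicate 2, which had 3.51 CPM against 0.00 and 0.08 in the others, and was -1.57 without that library. Its FMR1 KO fraction 5/6 value of 2.88 was -0.47 without replicate 2. Rab37 (1.80 in WT fraction 5/6) and Rab38 (1.68 in FMR1 KO fraction 5/6) stayed under 1.3 CPM in every standard RPF library.

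Enrichment compares the pellet with fraction 5/6 and asks whether an mRNA is found more in the compacted clusters than in the polysomes. None of 48 members was called in WT, where 0.0229% of all genes were (edgeR, and none with DESeq2). At an unadjusted p under 0.05, 0 were higher and 2 lower. Without the library labelled WT fraction 5/6 replicate 3, whose Fmr1 goes against its label, 2 members and 1258 of 13350 genes were called, in place of 3 genes. DESeq2 called 90 genes in all. In FMR1 KO none of 50 members was called either, but here 11.5% of all genes were, mostly higher in the pellet (10.1%). The FMR1 KO share also rests on single replicates, with 133 genes called without replicate 1 and 39 without replicate 3, in place of 1528. At an unadjusted p under 0.05, 1 member was higher and 13 lower, and DESeq2 called 1, Rab6a, lower (adjusted p = 0.0314). The median was -0.28 for the members and 0.01 for all genes, with 40 of 50 members below 0. The smallest adjusted p was 0.0746, for Rab9b of late endosomes at -0.36 (SE 0.11).

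The regulators of Rabs were counted in that comparison too. In a list of 109 GEFs, GAPs, effectors and carriers of Rabs, 19 of 107 tested were higher in the FMR1 KO pellet than in fraction 5/6 and none lower, beside 10.1% and 1.4% of all genes. In WT none of 107 was called. With low nuclease 24 of 109 were higher and 1 lower in WT, beside 14.3% and 8.6% of all genes. In FMR1 KO 28 were then higher and 2 lower, beside 9.31% and 10.7%. Over all genes the low nuclease calls fell to 153 in WT without replicate 1 and to 0 in FMR1 KO without replicate 3. The list was not tested against the Rabs or other genes. The standard FMR1 KO calls come from the fit whose total fell to 39 genes without replicate 3. They comprised 9 of 31 GEFs, 4 of 30 GAPs and 6 of 38 effectors. Myosin Va, the motor encoded by Myo5a that carries recycling vesicles, was at 2.36 (SE 0.20), the Rab kinase Lrrk2 at 2.05, Dennd4c, a GEF of Rab10, at 1.76 and Madd, the GEF of Rab3, at 1.43. Both subunits of the Rab3 GAP rose, Rab3gap1 by 0.98 and Rab3gap2 by 1.36. None of the 8 GDI, REP and prenylation genes passed the test in that fit.

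Coding length moved with this comparison. The 50 members had a median coding length of 645 nt and the Rab cycle list one of 2511 nt. Among all genes of FMR1 KO, the 4123 with under 1000 coding nt had a median enrichment of -0.27 and 2.98% of them were lower. The 1939 genes of 3000 coding nt or more had a median of 0.78, and 44.4% of them were higher. The members' median of -0.28 lay beside that of the short genes. Across all 13326 genes Spearman's rho between coding length and enrichment was 0.57. Genes are not independent replicates, and the part of length in the members' values was not tested beyond this.

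**Figure D3:**
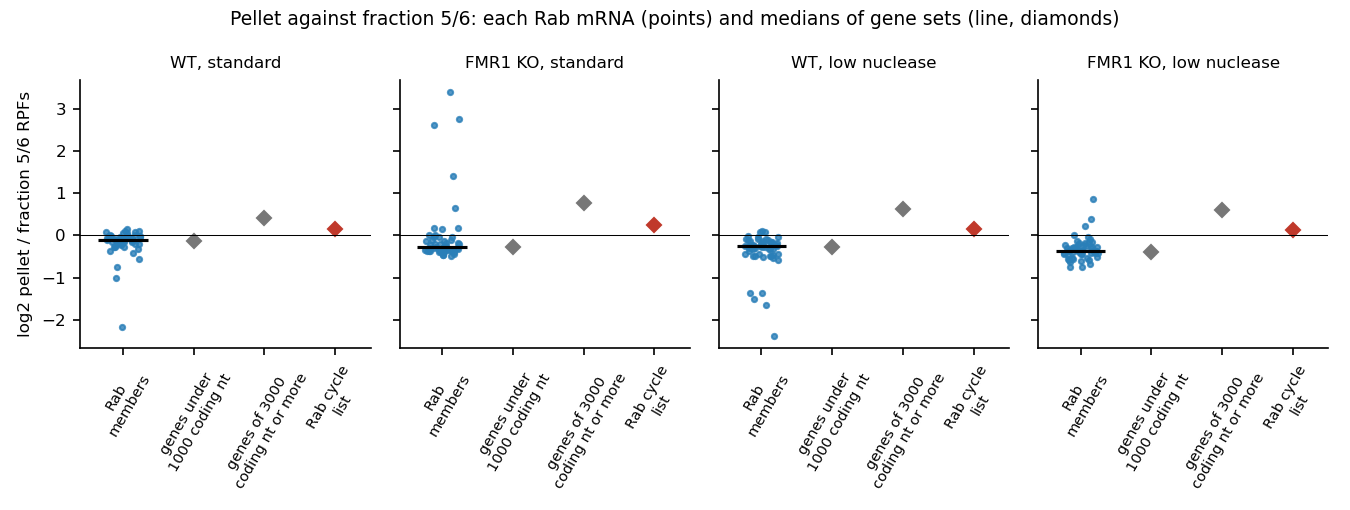
Log2 ratio of pellet to fraction 5/6 RPFs for each Rab mRNA tested (points, spread sideways at random) with the members' median (line), and the medians of genes under 1000 coding nt, of genes with 3000 coding nt or more and of the Rab cycle list (diamonds). In each of the 4 panels the members' median lies beside the median of the short genes and below that of the Rab cycle list.

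In the low nuclease preparation some members passed the test of enrichment. In WT 7 of 55 members were lower in the pellet and none higher, against 8.6% and 14.3% of all genes. In FMR1 KO 7 were lower and none higher, against 10.7% and 9.31% of all genes. In WT 52 of 55 members lay below 0 and in FMR1 KO 51 of 55, with medians of -0.25 and -0.37, while the medians over all genes were -0.02 and -0.03. Genes under 1000 coding nt had medians of -0.28 and -0.39.

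Of the 7 WT calls of low nuclease enrichment, 4 were among the 10 late endosome and lysosome Rabs, 2 among the 14 of the ER and Golgi and 1 among the 7 of early endosomes. Rab9b and Rab9, which return receptors from late endosomes, fell by 0.49 and 0.48, and Rab5a by 0.45. Rab1a fell by 0.50 and Rab18, a Rab of lipid droplets and the ER, by 0.53. Rab7 and Rab24 had the largest falls, 1.37 and 2.38, with libraries of fraction 5/6 that lay far apart. Rab24, a Rab of autophagy, had 18.7, 149 and 104 CPM in WT fraction 5/6 and 18.8, 13.5 and 15.5 CPM in the WT pellet. Rab7 had 295, 273 and 142 CPM in WT fraction 5/6 and 93.8, 78.6 and 85.1 CPM in the WT pellet. The FMR1 KO pellet replicate 1 also had 136 CPM of Rab24, where the other 2 had 23.5 and 15.9. Of the coding words of Rab24 56.1% also lie in transcripts of its overlapping neighbour Prelid1, and whether these counts belong to Rab24 was not tested.

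In FMR1 KO the 7 falls were in Rab4b at -0.61 (SE 0.12), Rab1b at -0.55, Rab8a at -0.55, Rab11b at -0.54, Rab12 at -0.53, Rab4a at -0.43 and Rab40c at -0.41. All but Rab1b and Rab40c are Rabs of recycling and of transport to the plasma membrane. The calls of both genotypes were fragile. Leaving out any 1 replicate number left 0 to 1 call in WT and 0 calls in FMR1 KO.

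No member passed edgeR's test of a difference between the genotypes. In the pellet none of 49 members was called (0.0152% of all genes were), and at an unadjusted p under 0.05, 1 was higher and 2 lower in FMR1 KO. In fraction 5/6 none of 50 was called, where 0.0% of all genes were, and 2 were higher at an unadjusted p under 0.05. In RNA-seq none of 56 was called (0.0736% of all genes), and 1 was lower at an unadjusted p under 0.05. DESeq2 called none in these 3 comparisons. The mRNA levels were close, with all 56 members between -0.47 and 0.52 on the log2 scale and a median standard error of 0.11. In the pellet 45 of 49 lay within 1, with a median standard error of 0.14, and Rab3a was at -0.31 (SE 0.14), Rab11a at -0.06 (SE 0.13) and Rab15 at 0.19 (SE 0.24).

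The interaction of genotype with library type gave the same count. For occupancy none of 56 members was called (0.067% of all genes), with 3 higher and 1 lower at an unadjusted p under 0.05, and DESeq2 called 1, Rab6a, lower in FMR1 KO (adjusted p = 0.0408). For enrichment none of 53 was called (0.0% of all genes), with 2 higher and 2 lower at an unadjusted p under 0.05, and DESeq2 called none. In the low nuclease pellet none of 55 was called (0.0197% of all genes), with 2 higher at an unadjusted p under 0.05 and none by DESeq2. A p that misses the threshold does not show that the genotypes are alike.

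The largest FMR1 KO values in the pellet came from 1 library. Rab33b, a Golgi Rab that binds the autophagy machinery, had 14.4, 384 and 13.4 CPM in the FMR1 KO pellet and 15.3, 18.2 and 13.0 CPM in the WT pellet. Rab40c, a Rab that acts with ubiquitin ligases, had 16.8, 237 and 20.9 CPM in the FMR1 KO pellet. It also had 23.2, 177 and 22.0 CPM in WT fraction 5/6. Rab43 had 4.09, 53.5 and 2.80 CPM in the FMR1 KO pellet. In each case replicate 2 alone stood apart, and without that pellet library the FMR1 KO occupancy gave 39 calls.

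Rab27a, a Rab of secretory lysosomes and dense vesicles, had the highest occupancy and the widest spread. Its mRNA was scarce, at 7.36, 7.02 and 8.86 CPM in WT RNA. Its RPFs reached 305, 212 and 113 CPM in the WT pellet, 27.0, 165 and 338 CPM in the FMR1 KO pellet, 31.1, 99.0 and 684 CPM in WT fraction 5/6 and 294, 420 and 5.14 CPM in FMR1 KO fraction 5/6. Libraries of 1 group lay far apart, and the genotypes overlapped. The 684 CPM come from the library labelled WT fraction 5/6 replicate 3, and without it WT fraction 5/6 lay below the WT pellet. In the low nuclease preparation every RPF library of it had between 3.06 and 4.84 CPM. No peak of RPF coverage was called on its transcript in any library, and no 28-nt word of its coding sequence occurs elsewhere. Of the words outside its coding sequence 4.19% are shared with other transcripts, among them Gm25960, Fibp and Wnt4. The source of these counts was not tested.

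**Figure D4:**
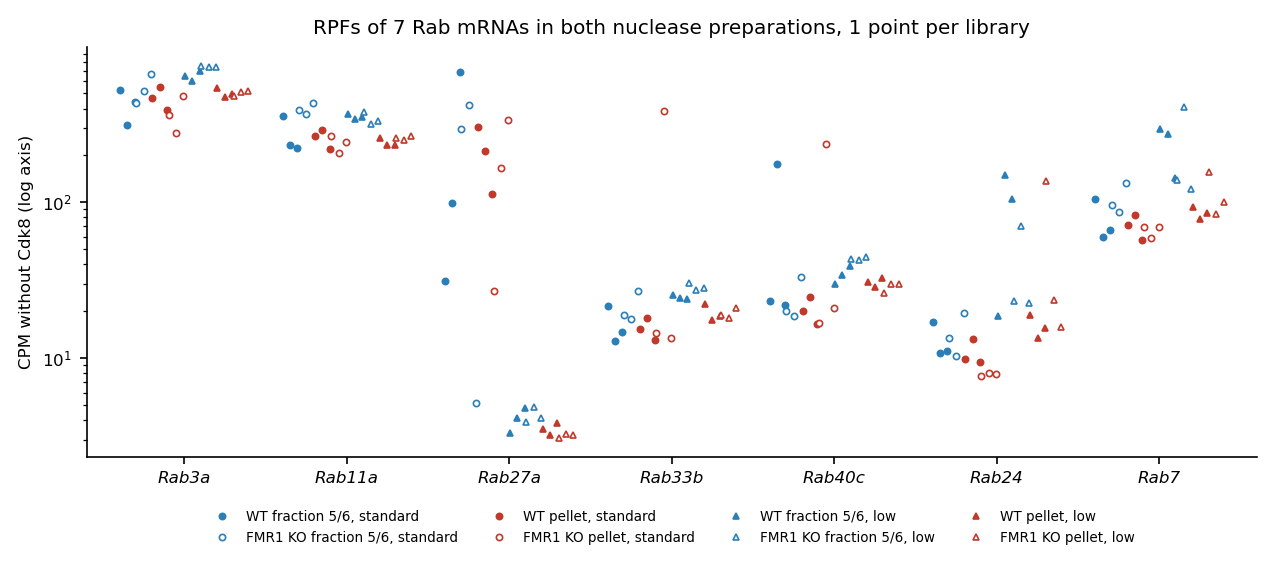
CPM without Cdk8 on a log axis for 7 Rab mRNAs in RPF libraries of the standard (circles) and low nuclease (triangles) preparations, 1 point per library (blue fraction 5/6, red pellet, filled WT, open FMR1 KO). Rab3a and Rab11a hold a narrow range in both, Rab27a spreads from 5.14 to 684 CPM in the standard preparation and stays under 5 CPM with low nuclease, and Rab33b has 1 library, Rab40c 2 and Rab24 and Rab7 several far above the rest.

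The preparations were also compared directly. In the WT pellet 11 of 54 members were higher in the standard preparation and 9 lower, against 15.0% and 24.0% of all genes. In the FMR1 KO pellet 3 were higher and 3 lower, against 7.42% and 9.54% of all genes. The counts moved with the libraries. In WT 1 member was called without replicate 1, 7 without replicate 2 and 15 without replicate 3, and in FMR1 KO 0 without replicate 2 or 3 and 0 with the replicate block. Rab27a differed by 6.41 in WT and 6.31 in FMR1 KO. In FMR1 KO 46 of 54 members lay within 1, and Rab33b at 3.69, Rab40c at 2.50 and Rab24 at -2.42 did not pass the test. Besides it, the WT rises ran from 0.42 for Rab3a to 0.87 for Rab42, and included Rab11a (0.61), Rab14 (0.54) and Rab3b (0.53). The WT falls ran from -0.37 for Rab3c to -1.31 for Rab39 and included Rab15 (-0.95) and Rab22a (-0.78). With library size alone, where the median of all genes moved to -0.56 in WT, the values of Rab1a, Rab3a and Rab6a changed sign. The preparations differ in MgCl2, in nuclease dose, in digestion temperature and in how monosomes were collected, and these cannot be told apart.

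In the low nuclease preparation some extremes of occupancy recurred and others did not. In WT 14 of 55 members were higher and 8 lower, against 26.6% and 25.5% of all genes, and in FMR1 KO 10 were higher and 5 lower, against 16.1% and 12.9%. Without replicate 2, or with library size alone, no member of FMR1 KO was called, and with library size alone none of WT. Rab15 was at -2.35 in WT and -2.04 in FMR1 KO, Rab11b at -2.05 and -2.23 and Rab5b at -1.95 and -1.70. Rab11a was at 2.28 and 2.19, Rab3a at 1.77 and 2.01 and Rab26 at 2.40 and 2.93. Rab27a, the highest member of the standard preparation, was at -0.48 in WT and -0.60 in FMR1 KO and passed the test in neither. Rab31 was at -0.68 in WT, Rab22a at -0.66 and Rab8b at 0.38, against -2.31, -2.15 and -1.61 with standard nuclease. With the RNA libraries of the standard preparation in place of their own, the counts became 6 higher and 36 lower in WT and 6 higher and 35 lower in FMR1 KO, so the share of rises depends on which RNA was used. Rab9, at 1.86 in WT with its own RNA, was at -0.01 with the other.

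RPF peaks, intervals of raised coverage called by the authors in each standard library along the transcript, were used to ask where ribosomes sat on the Rab mRNAs. Each of the 12 standard RPF libraries had 142 to 215 peaks on 23 to 33 members, and 96.6% to 100% of them lay in the coding sequence. Of the 56 members 36 had a peak in at least 1 library and 20 had none. Members with many counts mostly had many peaks, with exceptions. Rab3a, with the highest CPM, had 8 peaks over the 6 pellet libraries, and Rab3c, with fewer counts, had 72. Rab6b and Rab9b each had 70 and Rab14 had 68. Rab5b, with 10.7 ± 2.11 CPM in the WT pellet, had 21. Peaks are called on transcripts and counts on genes, and a read that matches several genes may enter only the former.

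At 10 sites in 8 members the middle of a peak lay within 6 nt in all 6 pellet libraries, WT and FMR1 KO alike. The count depended on the limit, with 4 sites within 3 nt and 27 within 12 nt. Without replicate 2 or 3 there were 23 sites, and without replicate 1 there were 10, of which 6 were among the first 10. The middle stands in for the summit, which the files do not give. They included codon 159 of Rab1a, 133 of Rab2a, 193 of Rab39b, 6 and 92 of Rab5a, 200 of Rab5b, 147 of Rab5c, 74 of Rab6a and 18 of Rab6b. The peak of Rab6a was the highest, with heights of 257, 147 and 147 in WT and 152, 111 and 124 in FMR1 KO (read coverage, not scaled between libraries). It was also found in all 6 libraries of fraction 5/6, while the sites of Rab39b and Rab5c were found in none. The site at codon 92 of Rab5a had heights of 132, 101 and 72 in WT and 71, 65 and 67 in FMR1 KO. The peak of Rab39b was faint, with heights of 1 to 15.

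The 35-nt windows around these middles are shown for 4 sites because they let the stretch under the ribosome be read. Capitals mark the letters TGGA or AGGA, searched on the sense strand. Positions are on GRCm38, and each window lies in a coding exon.
Rab6a, codon 74, chr7:100629859-100629893, plus strand, exon 4: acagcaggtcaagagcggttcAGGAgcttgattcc
Rab5a, codon 92, chr17:53497620-53497654, plus strand, exon 3: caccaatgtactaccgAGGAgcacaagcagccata
Rab2a, codon 133, chr4:8582400-8582434, plus strand, exon 6: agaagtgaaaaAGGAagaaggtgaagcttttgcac
Rab1a, codon 159, chr11:20224685-20224719, plus strand, exon 6: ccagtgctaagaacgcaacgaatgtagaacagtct

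Of the 10 windows 8 held TGGA or AGGA, where 43.56% of 4828 coding windows of the same length from the same transcripts did. TGGA was in 4 and AGGA in 5, against 21.54% and 27.73%, and the window of Rab5c held both. The letters ACTG, ACTT and GACAAG were in none, against 10.94%, 9.341% and 1.864%. A match describes the letters of the window and is not a binding site. The letters were searched because such motifs have been linked to FMRP, and 10 windows are few.

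The switch II region offered a fixed point in 35 of the 36 members with peaks. Its first 6 codons encode the same residues in each, so the members can be lined up on it. A peak interval lay over it in all 6 pellet libraries in Rab14, Rab1a, Rab35 and Rab6a, and in none of them in Rab8a, Rab8b, Rab5b, Rab31, Rab4a, Rab11b, Rab15, Rab23, Rab2b, Rab30 and Rab3d, of which the last 5 had at most 2 pellet peaks each. The sequences are shown because the same 6 residues were encoded by different codons. Capitals mark the 6 codons, and 12 nt are given on either side.
Rab14, exon 4, chr2:35189962-35190003, minus strand, peaks in 6 of 6: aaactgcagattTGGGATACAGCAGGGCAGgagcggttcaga
Rab35, exon 3, chr5:115640148-115640189, plus strand, peaks in 6 of 6: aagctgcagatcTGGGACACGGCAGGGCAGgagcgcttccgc
Rab6a, exon 4, chr7:100629841-100629882, plus strand, peaks in 6 of 6: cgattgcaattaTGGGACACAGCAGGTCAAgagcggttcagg
Rab5b, exon 3, chr10:128683261-128683302, minus strand, peaks in 0 of 6: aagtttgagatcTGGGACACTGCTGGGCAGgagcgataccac
Rab8a, exons 2 and 3, chr8:72168474-72171267, plus strand, peaks in 0 of 6: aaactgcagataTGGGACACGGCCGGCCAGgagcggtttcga
Rab31, exons 3 and 4, chr17:65698057-65717517, minus strand, peaks in 0 of 6: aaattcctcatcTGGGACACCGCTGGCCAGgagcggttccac

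The coordinates of Rab8a and Rab31 span an intron. The members with and without peaks also differ in RPF counts, and the part of depth in this split was not tested. Over all 35 members, peak middles in the first 10 codons of switch II numbered 3.86 ± 0.72 per 100 codons (SD over 6 pellet libraries). Other 10-codon bins from 60 codons before to 129 after had 1.45 to 3.52, and the bins that start 30, 70, 90 and 120 codons downstream were within 1 SD of the switch II value, so this bin did not stand apart. Fraction 5/6 gave 3.48 per 100 codons in the same bin.

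**Figure D5:**
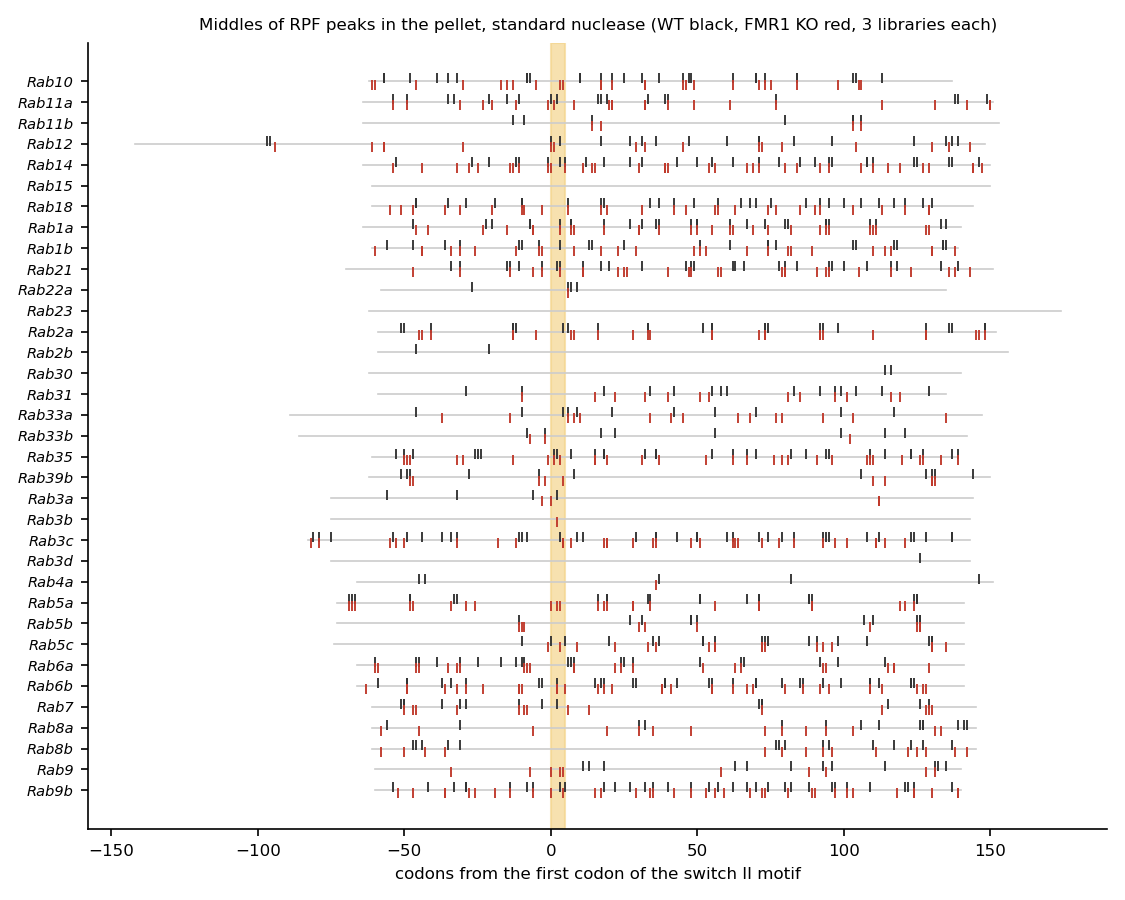
Middles of RPF peaks along 35 Rab coding sequences, aligned at the first codon of the switch II motif (yellow band), in 6 pellet libraries of the standard nuclease preparation (black WT, red FMR1 KO). Grey lines show the extent of each coding sequence. Middles spread over whole coding sequences in both genotypes, and Rab15, Rab23 and Rab2b have none or few in the pellet.

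Each genotype had 32 sites on Rab mRNAs with a peak middle in all 3 of its pellet libraries. Of these, 7 in WT and 7 in FMR1 KO had no peak middle within 6 nt in any pellet library of the other genotype. At 1 of these WT sites and 3 of these FMR1 KO sites no peak interval of the other genotype lay over the middle. With 3 libraries in each genotype these counts carry no test.

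Of the 8 GDI, REP and prenylation genes 5 were higher and 3 lower in WT occupancy. In the WT pellet Gdi2, a GDP dissociation inhibitor, was at 1.57 (SE 0.11). The geranylgeranyl transferase subunits Rabggta and Rabggtb, which attach the lipid anchor, were at 1.70 and 1.13, and Chm, their escort, at 1.22. Rabif, Chml and Rabac1 fell. Across the Rab cycle list 53 of 109 genes were higher and 30 lower in WT, with a median of 0.37, beside 31.1% and 34.2% of all genes. In FMR1 KO 45 were higher and 34 lower, with a median of 0.20. In WT 23 of 39 effectors were higher and 8 lower, 15 of 30 GAPs were higher and 9 lower, and 10 of 32 GEFs were higher and 10 lower. The Rab genes themselves had a median of -0.25.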

How the data were processed

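Per the study's methods and the submitters' processing notes, the authors trimmed reads with Cutadapt 2.10, removed ribosomal and non-coding RNA with Bowtie2 2.3.5, aligned to GRCm38 with STAR 2.7.8a, removed duplicates with Picard and SAMtools 1.19.2 and counted genes with featureCounts 2.2.0. The deposited counts are whole numbers without normalization. The deposited peak heights are signal (RPF coverage) called by the authors per library on transcripts, not scaled between libraries. Whether their minimum over the transcript average was applied is not given in the sources used here. Positions of the peaks are in nt of the transcript.

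Cdk8 was left out, as were genes not protein-coding in GENCODE M21. Genes kept by filterByExpr were scaled by TMM and tested with edgeR 4.0.16 (quasi-likelihood, R 4.3.3) over all genes of the groups compared, with Benjamini-Hochberg adjustment and a threshold of 0.05. The filter keeps a member through its higher group, so counts are of members tested. Standard errors are on the log2 scale. Nothing in the labels says that the 3 libraries of a group came from separate cages or days, so p-values measure the spread between them. The members, the compartments, the Rab cycle list and the named genes (5 largest rises and falls past the threshold in each comparison, the 10 highest in the pellet, members with a peak in all 6 pellets, and the Rab3 genes with Rab27b) were chosen with earlier results of these data known; Rab33b, Rab40c, Rab24 and other single-library values were named after their values were seen. Alternatives were DESeq2 1.42.0, library size alone, no filter, all biotypes, Cdk8 kept, a replicate block and leaving out replicates. The test was tested on simulated data. Peaks were handled with Python 3.11.15 and pandas 2.3.3. Sequences and coordinates are those of GRCm38 and GENCODE M21. A further gene of the Rab cycle list and a further peak window are not reported here.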

Additional observations from a re-analysis of the deposited data

Results flagged for a closer look

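The pellet occupancy of 2 Golgi Rabs had opposite signs in the WT libraries of the preparations and passed the test in both. Other members changed sign without passing in both, such as Rab8b at -1.61 and 0.38. Rab39b, mutated in an X-linked form of intellectual disability, was at -1.05 with standard nuclease and at 0.63 with low nuclease, and Rab39 at -1.7 and 0.76. The difference in occupancy between the preparations was not tested. With the RNA of the standard preparation in place of its own, the low nuclease value of Rab39b was -1.03. Rab39 had 0.25 to 0.41 CPM in the WT standard pellet and 1.16 to 1.20 CPM in the WT low nuclease pellet. These are 3 to 7 counts and 26 to 51 counts per library.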

How the results depend on the processing

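The alternatives gave 3571 values, for named members and for summed CPM outside the standard pellet and RNA. Of these, 3238 stayed the same. For members this means the same side of the threshold, and a sign change with neither value past it is included. Another 216 fell below the threshold, 67 passed it, 41 changed sign with a value past it, and 9 summed CPM values moved. Depth limits members with few counts, such as Rab25 and Rab39. The cause of each change below was not tested unless it follows from the alternative.

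With library size alone, which moves all genes, the WT occupancy was -0.26 for Rab14, -0.3 for Rab1a, -0.59 for Rab5a, -1.09 for Rab5c and -0.82 for Rab6a. In FMR1 KO it was -0.03 for Rab11a, -0.46 for Rab14, -0.54 for Rab1a, -0.2 for Rab3a, -0.13 for Rab3b and -0.89 for Rab5a. In WT fraction 5/6 against RNA it was -1.14 for Rab10, -0.22 for Rab14, -0.19 for Rab1a, -0.07 for Rab3a, -0.66 for Rab5a and -1.19 for Rab5c. In FMR1 KO fraction 5/6 it was -0.84 for Rab10, -0.14 for Rab5a, -0.75 for Rab5c and -0.5 for Rab6a. In the WT pellet, standard against low nuclease, it was -0.09 for Rab1a, -0.1 for Rab3a and -0.42 for Rab6a. Members called then numbered 0 for low nuclease occupancy in both genotypes, 37 for FMR1 KO low nuclease enrichment and 14 for the FMR1 KO preparations.

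With RNA of the standard preparation, low nuclease occupancy had 42 members called in WT and 41 in FMR1 KO. The WT values were then -0.54 for Rab10, -1.38 for Rab27b, -0.4 for Rab2a, -1.03 for Rab39b, -0.49 for Rab3c, -0.3 for Rab5c and -0.01 for Rab9. The FMR1 KO values were -0.65 for Rab10, -1.35 for Rab27b, -0.59 for Rab2a, -1.24 for Rab39b, -0.8 for Rab3d, -0.31 for Rab5c and -0.24 for Rab9b.

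DESeq2 called 1 member in FMR1 KO enrichment, 1 in the occupancy interaction, 15 in WT low nuclease enrichment and 16 in the FMR1 KO preparations. With Cdk8 kept, FMR1 KO low nuclease enrichment had 11. Without the library labelled WT fraction 5/6 replicate 3, WT enrichment had 2. Without FMR1 KO pellet replicate 2, an alternative chosen after seeing the data, FMR1 KO enrichment had 1, the FMR1 KO preparations had 2, and the occupancy of Rab25 was -1.57.

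The samples were not treated as paired by replicate number, since in no comparison was the correlation of all same-numbered samples over 0.1. In low nuclease enrichment these correlations were 0.179, 0.0889 and 0.224 in WT and 0.369, 0.158 and 0.0772 in FMR1 KO. Most other comparisons had lower values. This limit does not show that pairing is absent. With the replicate block, members called were 11 and 15 in WT and FMR1 KO low nuclease enrichment and 12 and 0 in the preparations. In the other comparisons the block left the count within 1.5 times, with 37 in WT occupancy.

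Without both FMR1 KO low nuclease RNA libraries with concentrated counts, FMR1 KO low nuclease occupancy had 22, from a fit with 1 RNA library that is assumed to vary like the pellet libraries. Apart from that fit, leaving out replicates, with the other named libraries left out included, gave 16 to 32 members called in WT fraction 5/6 occupancy, 0 to 4 in FMR1 KO enrichment, 13 to 33 in WT and 0 to 16 in FMR1 KO low nuclease occupancy, 0 to 1 in WT and 0 in FMR1 KO low nuclease enrichment, and 1 to 15 in WT and 0 to 2 in FMR1 KO for the preparations. Rab25 ran from -1.57 to 4.44 in the FMR1 KO pellet, with -1.45 without replicate 2, and from -0.47 to 3.32 in FMR1 KO fraction 5/6.

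Summed CPM became 4288 and 3989 in FMR1 KO and WT RNA and 3996 and 3928 in the pellet with TMM, and 1377 and 1752 in the pellet with Cdk8 in the total. Recurrent peak sites numbered 4 within 3 nt, 27 within 12 nt, 30 in at least 5 of 6 libraries, and 10 to 23 without 1 replicate number.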
